A study of Mus musculus with 10 samples.

Results

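The 40 genes described here serve the stress response of the endoplasmic reticulum and the folding and degradation of proteins in that organelle. They were taken as a list of gene symbols, without reference to a measured value in the rule itself, and all 40 were found among the 32531 symbols of each count table. The members and the rule were, however, chosen with earlier results of these data known. The rule names Ficd and Creb3l1, so their unadjusted p values are not those of an unselected pair. RNA came from whole striatum of mice of 1 transgenic line, Chat-TRAP DW167. In translating ribosome affinity purification (TRAP) a ribosomal protein tagged with EGFP is expressed in 1 cell type, here under Chat, the gene of the acetylcholine-synthesising enzyme, and polysomes are purified with antibodies to EGFP. All groups carried this transgene. Immunopurified RNA was sequenced from mice after cocaine self-administration, from yoked control mice and from mice after saline self-administration, with 3 libraries per group. One further library, the input, held total RNA of saline self-administration striatum without immunopurification and had no replicate. The labels give neither the age of the mice, nor what the yoked mice received, nor the number of animals in a library, so p values here measure the spread between these libraries, which may be technical.

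Secretory and membrane proteins fold inside the endoplasmic reticulum with the help of the chaperone BiP, of disulfide isomerases and of the lectin chaperones calnexin and calreticulin, and those that fail are sent back to the cytosol for degradation. A load of unfolded protein activates the sensors IRE1, PERK and ATF6. IRE1 splices the message of Xbp1, PERK slows translation and favours ATF4, and ATF6 is cut to release a transcription factor, after which chaperone and degradation genes are induced. Cholinergic interneurons of the striatum are large, tonically active cells with wide axonal arbors. Genes were ordered below by these roles, and levels are normalised read counts, given as CPM, the count of a gene scaled to a fixed total of gene counts per library. Levels of different genes were not compared, because no transcript lengths were used.

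Some promoters of the list held the letters of known elements of this response, which are shown because they are a feature that the RNA values did not enter. RefSeq promoter windows (GRCm38.p6, from 250 bases before to 50 bases after the annotated start) were at hand for 34 of the 40 genes and were searched on both strands. The endoplasmic reticulum stress element ERSE, spelled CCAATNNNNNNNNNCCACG and known as a site of ATF6, XBP1 and NF-Y, was matched in 9 of 34 members, or 26.5%, against 37 of all 27025 genes with a window, or 0.137%. Members with a match were thus 9 of the 37 genes in the whole table. The shorter element ERSE-II, ATTGG and CCACG with any base between them, was matched in 2 members (5.88%) and in 0.0444% of all genes. The C/EBP-ATF element, TGATGNAA, through which ATF4 acts, was matched in 5 members (14.7%) and in 4.51% of all genes. The element UPRE, TGACGTGG, was matched in 0 members and in 0.714% of all genes. The wider lists described at the end hold other organelle and stress response genes, including amino acid and tRNA synthetase genes of the ATF4 arm. In the 83 of these genes with a window, ERSE and ERSE-II were matched in 0, the C/EBP-ATF element in 10.8% and UPRE in 4, or 4.82%. A match describes letters in a window and does not show that a factor binds there. The members were chosen for their role in this response, so their shares are not independent of that choice and were not tested. None of these motifs was matched in the window of Ficd, and no window was at hand for Creb3l1.

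The ERSE matches upstream of the start are printed 5′ to 3′ on the strand of the gene, with the element in capitals and 6 flanking bases on each side. In Calr, Creld2, Derl3 and the proximal site of Hsp90b1 the element lies on the opposite strand, so its reverse complement is in capitals.
Hspa5, chr2:34772019-34772049, + strand: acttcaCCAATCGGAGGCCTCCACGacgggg
Hsp90b1 distal, chr10:86705632-86705662, - strand: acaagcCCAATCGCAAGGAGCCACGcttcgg
Hsp90b1 proximal, chr10:86705527-86705557, - strand: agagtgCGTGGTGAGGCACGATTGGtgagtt
Dnajc3, chr14:118937821-118937851, + strand: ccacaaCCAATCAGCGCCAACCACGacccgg
Pdia6, chr12:17266485-17266515, + strand: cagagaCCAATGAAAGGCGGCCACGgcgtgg
Creld2, chr15:88819514-88819544, + strand: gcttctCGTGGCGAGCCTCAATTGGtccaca
Calr, chr8:84847069-84847099, - strand: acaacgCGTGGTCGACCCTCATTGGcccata
Canx, chr11:50325794-50325824, - strand: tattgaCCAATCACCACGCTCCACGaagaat
Syvn1, chr19:6046526-6046556, + strand: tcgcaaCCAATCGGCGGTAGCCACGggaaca
Derl3, chr10:75893236-75893266, + strand: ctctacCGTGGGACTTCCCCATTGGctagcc
These genes span BiP itself, its cochaperone, the Hsp90 of the organelle, 2 oxidative folding genes, both lectin chaperones and 2 degradation genes.

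The C/EBP-ATF matches are shown for the arm of the response that runs through PERK and ATF4, again with the element in capitals. In Chac1, Atf3 and Herpud1 it lies on the opposite strand, so its reverse complement is in capitals, also in the longer stretch of Herpud1.
Asns, chr6:7693219-7693238, - strand: gccacaTGATGAAActtccc
Chac1, chr2:119351043-119351062, + strand: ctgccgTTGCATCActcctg
Atf3, chr1:191183430-191183449, - strand: tcgcacTTGCATCAccaagt
Herpud1, chr8:94386311-94386330, + strand: ggcgggTTGCATCAgcccgc
The fifth match, in Trib3, and the ERSE-II match of Dnajb11 lay just after the start and are not printed. Herpud1, a membrane protein of the degradation complex, was the 1 member with matches to a pair of element kinds, and its 250 bases before the start are shown with the C/EBP-ATF element first and ERSE-II after it in capitals, followed by those of Hspa5 with its ERSE in capitals.
Herpud1, chr8:94386179-94386428, + strand: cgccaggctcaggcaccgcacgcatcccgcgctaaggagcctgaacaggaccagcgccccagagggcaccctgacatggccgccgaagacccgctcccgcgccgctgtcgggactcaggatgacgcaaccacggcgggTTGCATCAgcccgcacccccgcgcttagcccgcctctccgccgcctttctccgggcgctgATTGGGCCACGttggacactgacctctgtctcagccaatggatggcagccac
Hspa5, chr2:34771840-34772089, + strand: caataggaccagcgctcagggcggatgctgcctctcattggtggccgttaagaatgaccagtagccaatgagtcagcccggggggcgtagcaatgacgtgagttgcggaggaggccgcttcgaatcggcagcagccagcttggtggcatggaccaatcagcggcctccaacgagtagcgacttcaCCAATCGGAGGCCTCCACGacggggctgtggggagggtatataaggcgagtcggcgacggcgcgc

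**Figure D1:**
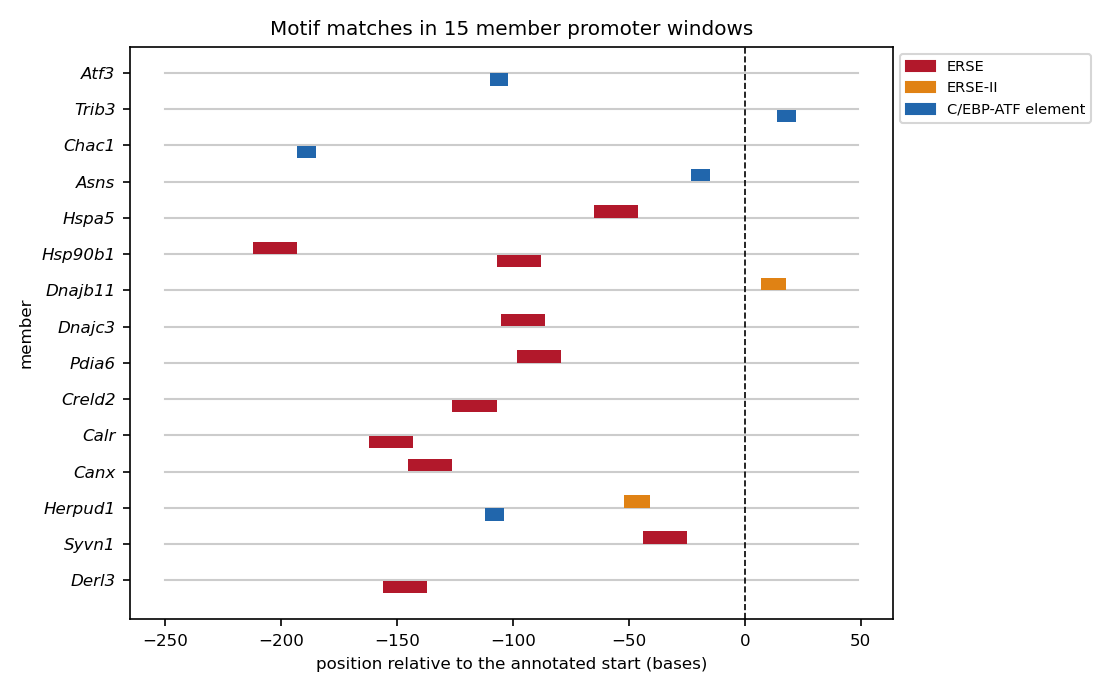
Positions of motif matches in the promoter windows of the 15 members that had any, with distance from the annotated start in bases on the horizontal axis; bars above a line lie on the strand of the gene and bars below it on the opposite strand. The ERSE bars lie between 212 and 26 bases before the start.

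Gene counts per library ranged from 24526765 to 75220922, the largest being cocaine library 2, and the input held 40912230. The cholinergic identity of the immunopurified RNA was checked with 12 markers, all of which lay above the input in all 3 saline libraries, with a median of 5.27 for the log2 ratio. All 14 spiny neuron, 8 astrocyte, 9 oligodendrocyte and 8 microglia markers lay below the input. RNA of those cells was still present, since spiny neuron markers summed to 907 to 1766 CPM in cocaine, 1185 to 1527 CPM in yoked and 806 to 1964 CPM in saline libraries, against 11400 CPM in the input. Of 10 markers of other striatal interneurons and 5 of oligodendrocyte precursors, 1 each lay above the input. The precursor markers summed to 52.4 to 75.3 CPM in immunopurified libraries and 68.4 CPM in the input. Ependyma and choroid plexus markers summed to 93.9 CPM in saline library 3. They summed to 1.81 to 22.1 CPM in the other immunopurified libraries and 15.8 CPM in the input. The lane named in the labels was 4 for cocaine and yoked, 3 for saline and 5 for the input, so that a difference of lane and a difference of treatment cannot be told apart wherever saline or input libraries are compared. Libraries 2 of the yoked and saline groups stood apart by a low share of reads not uniquely aligned, 36.3% and 36.4% against 46.5% to 57.1% in the other 7 immunopurified libraries, and by the fewest genes with a count, 16724 and 16530 against 17354 to 18917.

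Most genes of the list measured higher in cholinergic ribosome-bound RNA than in total striatal RNA. Of 39 members with at least 20 counts in the input or in the mean saline immunopurified library, 23 lay above the input in all 3 saline immunopurified libraries and 4 below it in all 3, where 35.8% and 44.9% of all 15888 genes measured did so. The list had a median log2 ratio of 0.42 with an SD of 0.27 between the medians of the 3 libraries, beside −0.20 ± 0.023 for all genes measured. In these bulk samples a smaller number of cells of a type and less RNA per cell cannot be told apart, and the ratios have no test because the input was a single library. The ratios also set ribosome-bound RNA against total RNA. A difference of cell type and a difference in ribosome binding therefore cannot be told apart.

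Among the sensors and factors the ratios lay on both sides of the input, also within families. Creb3l1, also called OASIS, an ATF6-like factor held in the endoplasmic reticulum membrane, had the highest ratio of the list. It measured 9.10, 7.26 and 8.98 CPM in saline immunopurified libraries 1 to 3 and 1.32 CPM in the input (95% counting interval 0.992 to 1.72), 6.36-fold higher. Its relative Creb3l2 had the lowest ratio, with 2.69, 1.11 and 0.926 CPM against 10.5 CPM (9.52 to 11.5), 7.46-fold lower. Creb3, the founding member of this family, measured 25.6, 31.6 and 22.3 CPM and 11.0 CPM in the input, 2.38-fold higher. The Creb3 locus overlaps Gba2, whose reads may not be told apart from it. The 3 members of the family thus lay on both sides of the input, with no saline library of any of them on the other side.

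Atf6, the cleaved sensor, measured 58.1, 80.2 and 54.7 CPM against 203 CPM in the input (199 to 208), 3.21-fold lower. The Atf6 locus overlaps other annotated genes, among them protein-coding Gm29733 and the long noncoding RNA Gm9929. Reads in the shared stretches may not be told apart. Atf6b, the paralog of Atf6, was above the input in all 3 libraries, at a log2 ratio of 0.44 ± 0.26 (SD, n = 3). Ern1, the gene of IRE1, was above the input at 0.68 ± 0.42, and Eif2ak3, the gene of PERK, lay on both sides of it at 0.30 ± 0.48. Of the 4 sensors, 2 were therefore above the input in every saline library and Atf6 was below it in every one.

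Atf4, the factor translated when PERK is active, measured 294, 253 and 354 CPM in the saline immunopurified libraries and 95.4 CPM in the input (92.4 to 98.4), 3.12-fold higher. Xbp1 measured 108, 165 and 148 CPM and 65.6 CPM, 2.11-fold higher. Ddit3, the gene of the pro-apoptotic factor CHOP, went the other way, with 5.08, 6.65 and 3.97 CPM against 12.4 CPM (11.3 to 13.5), 2.42-fold lower. The Ddit3 locus overlaps Mars1 and Mbd6 in the annotation and the strand setting of the counts is not stated, so reads in the shared stretches may not be told apart. Atf3, a stress factor induced through ATF4, was nearly absent, with 0, 1 and 0 counts in cocaine, 15, 0 and 1 in yoked and 0, 0 and 9 in saline libraries and 7 in the input, and it did not reach the count needed for a test.

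Targets of the PERK and ATF4 arm and subunits of the eIF2alpha phosphatase were above the input in 4 of 6 cases. Chac1, a glutathione-degrading enzyme, was 2.29-fold higher, Asns, asparagine synthetase, 1.88-fold, and Sesn2 and Ppp1r15a 1.86-fold and 1.61-fold. Ppp1r15b, the constitutive subunit that directs a phosphatase to eIF2alpha, measured 27.6, 34.5 and 31.4 CPM in the saline immunopurified libraries and 63.1 CPM in the input (60.7 to 65.6), 2.03-fold lower, while Ppp1r15a, the stress-induced subunit, averaged 11.4 ± 3.24 CPM (SD, n = 3) and 6.89 CPM in the input. Trib3, a pseudokinase induced by ATF4 and CHOP, rested on 30 input counts and measured 0.351, 1.69 and 0.0713 CPM in the saline libraries, on both sides of the 0.733 CPM of the input.

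The main chaperones lay closer to total striatum. Hsp90b1, the Hsp90 of the organelle, measured 333, 359 and 332 CPM against 309 CPM in the input (303 to 314), 1.11-fold higher. Hspa5, the gene of BiP, measured 87.3, 138 and 117 CPM and 88.0 CPM, with library 1 just below the input and the other 2 above it. Canx, calnexin, was above the input in all 9 immunopurified libraries, 1.46-fold in the saline group. Sdf2l1, a cofactor of BiP complexes, measured 9.88, 11.5 and 9.64 CPM against 3.27 CPM (2.74 to 3.88), 3.14-fold higher, and Manf, a secreted stress-induced factor with trophic effects on neurons, 23.0, 33.1 and 29.4 against 10.9 CPM, 2.59-fold higher. Ficd, Dnajb11, Dnajc3, P4hb, Pdia4, Creld2 and Calr lay on both sides of the input across the 3 saline libraries.

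Degradation genes were above the input in 5 of 7 cases, led by Derl3 (2.34-fold, 57 input counts), Derl1 (1.93-fold) and Herpud1 (1.80-fold). Sel1l, the adaptor of the degradation ligase, and Edem1, a lectin that extracts misfolded glycoproteins, lay on both sides. The ratios of Hyou1, Herpud1, Edem1 and Sesn2 were highest in saline library 2, which set their spread.

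**Figure D2:**
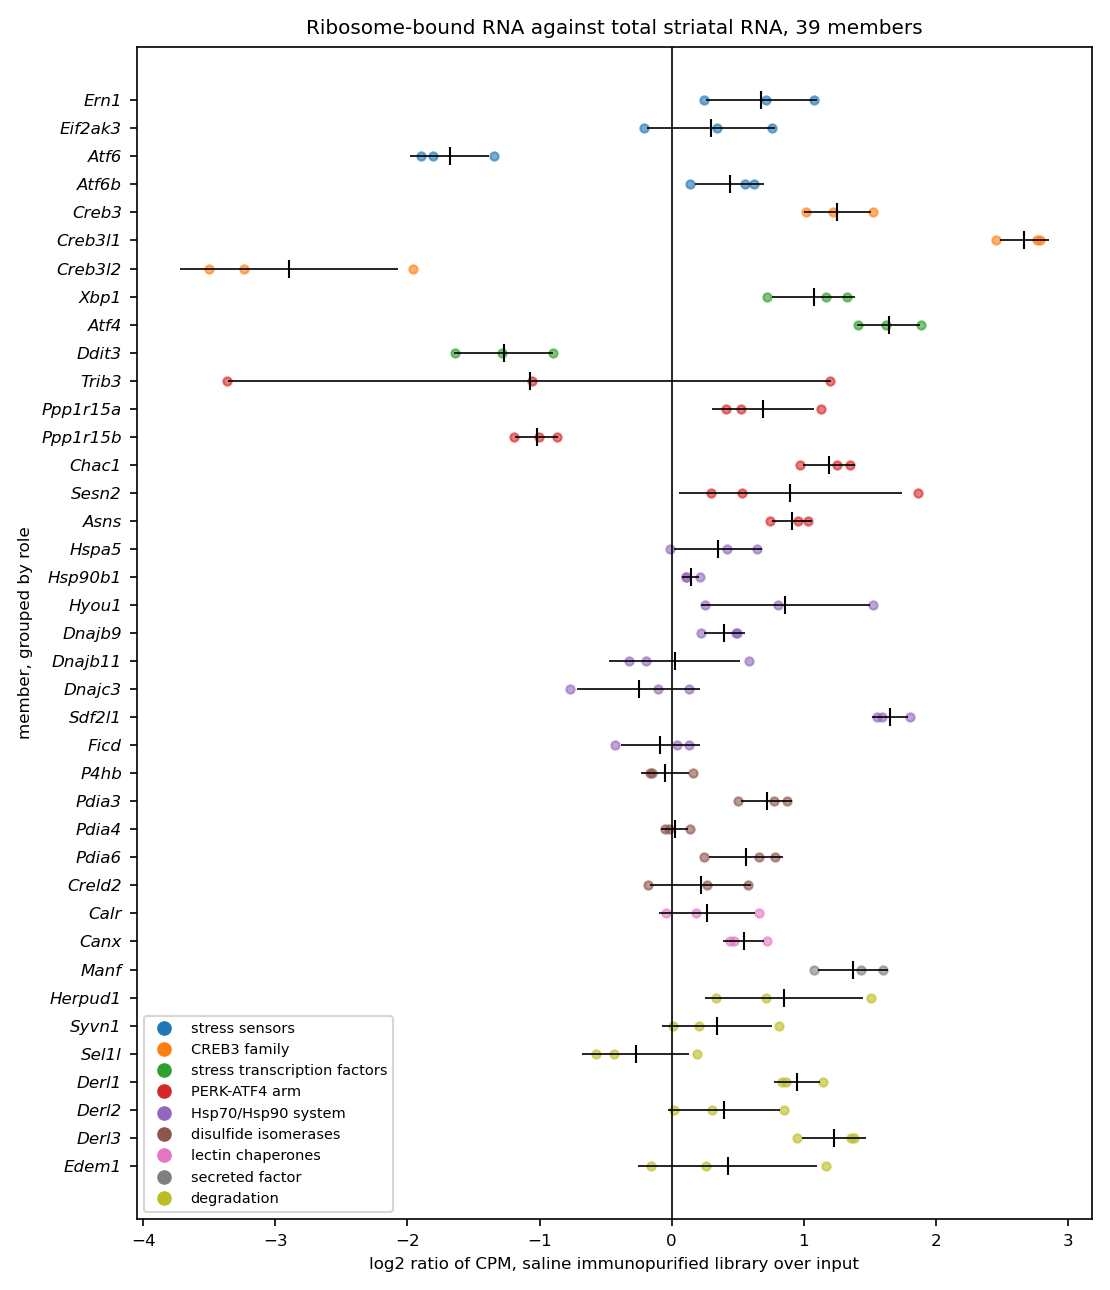
Log2 ratio of CPM in each saline immunopurified library over the 1 input library for 39 members; points are libraries, black marks the mean and horizontal lines ± 1 SD (n = 3), with members grouped by role and coloured by it. Creb3l1 lies farthest to the right at 2.67 and Creb3l2 farthest to the left at −2.90, and Hsp90b1 lies at 0.14 and Hspa5 at 0.35.

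Across the 9 immunopurified libraries the highest levels of the folding and degradation genes gathered in the same pair of libraries, from different treatments. Yoked library 2 or saline library 2 held the highest level of 28 of the 39 tested members (11 and 17 of them), where 41.1% of all 14989 genes tested had their highest level in one of these libraries. This held for 7 of 7 degradation genes and 7 of 8 genes of the Hsp70 and Hsp90 system, and for 3 of 6 genes of the PERK and ATF4 arm. For 11 members, Atf6, Xbp1, Hspa5, Hsp90b1, Dnajb11, Pdia4, Herpud1, Sel1l, Derl1, Derl2 and Edem1, both libraries exceeded the other 7, which was so for 12.5% of all genes tested.

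The following examples were chosen after their values were seen. Edem1 measured 32.0, 29.9 and 50.8 CPM in cocaine libraries 1 to 3, 30.8, 78.6 and 41.5 CPM in yoked and 26.2, 65.7 and 34.9 CPM in saline libraries. Dnajb11, an Hsp40 partner of BiP, measured 21.2, 37.4 and 33.7 CPM in cocaine, 32.7, 55.3 and 42.1 CPM in yoked and 31.4, 59.2 and 34.4 CPM in saline libraries. Derl2, a channel protein of the degradation complex, measured 26.2, 17.2 and 29.1 CPM in cocaine, 25.1, 41.5 and 32.5 CPM in yoked and 24.7, 44.1 and 30.2 CPM in saline libraries. In each of these genes library 2 was the highest of the yoked and of the saline group, and in Edem1 and Derl2 it was the lowest of the cocaine group.

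Hyou1, a large chaperone that exchanges nucleotide on BiP, measured 63.0, 108 and 72.6 CPM in cocaine, 80.2, 96.9 and 90.3 CPM in yoked and 60.4, 146 and 88.9 CPM in saline libraries, with library 2 the highest in each group. Over the list, the median deviation of a member from its own mean, on the log2 scale, was 0.16 in yoked library 2 and 0.29 in saline library 2. For all genes tested it was 0.073 and 0.022, and for genes tested of at least 5 CPM, as were 35 members, 0.12 and 0.083. In cocaine library 2 and saline library 1 the median of the list was −0.17 and −0.19. For the 7 degradation genes it was −0.43 in cocaine library 2, 0.31 in yoked library 2 and 0.68 in saline library 2. The 9 members with an ERSE match had medians of 0.069 in yoked library 2 and 0.42 in saline library 2, and 24 tested members with a window and no match had 0.20 and 0.19. The low shares of reads not uniquely aligned given above belong to the same pair of libraries. Cholinergic markers summed to 5761 CPM in yoked library 2 and 5550 CPM in saline library 2, the highest of their groups, and oligodendrocyte markers to 333 and 238 CPM, the lowest of their groups. Spiny neuron markers summed to 1185 CPM and astrocyte markers to 403 CPM in yoked library 2, again the lowest of its group. In saline library 2 they summed to 966 and 372 CPM, above saline library 3 with 806 and 312 CPM. Cocaine library 2, where the median of the list was low, also had the lowest spiny neuron, astrocyte and oligodendrocyte sums of its group. These were 907, 345 and 321 CPM, and its cholinergic markers summed to 4894 CPM, between 4487 CPM in cocaine library 1 and 4926 CPM in cocaine library 3. The part of these differences in the levels of the members was not tested.

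Cocaine library 2 had a different set. It held the highest level of Creb3l2, Ddit3, Pdia3 and Creld2, 4 of 39 members, where 19.3% of all genes tested had their highest level. Pdia3, the disulfide isomerase that works with the lectin chaperones, measured 80.5, 213 and 84.3 CPM in cocaine, 78.0, 136 and 99.8 CPM in yoked and 93.4, 121 and 113 CPM in saline libraries. Steadier genes were found too. Dnajb9, a cochaperone that restrains IRE1, stayed between 38.3 and 46.5 CPM over all 9 libraries, and Chac1 between 9.18 and 12.2 CPM. The highest library was less than 2-fold above the lowest in 17 members and more than 3-fold above it in 10.

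**Figure D3:**
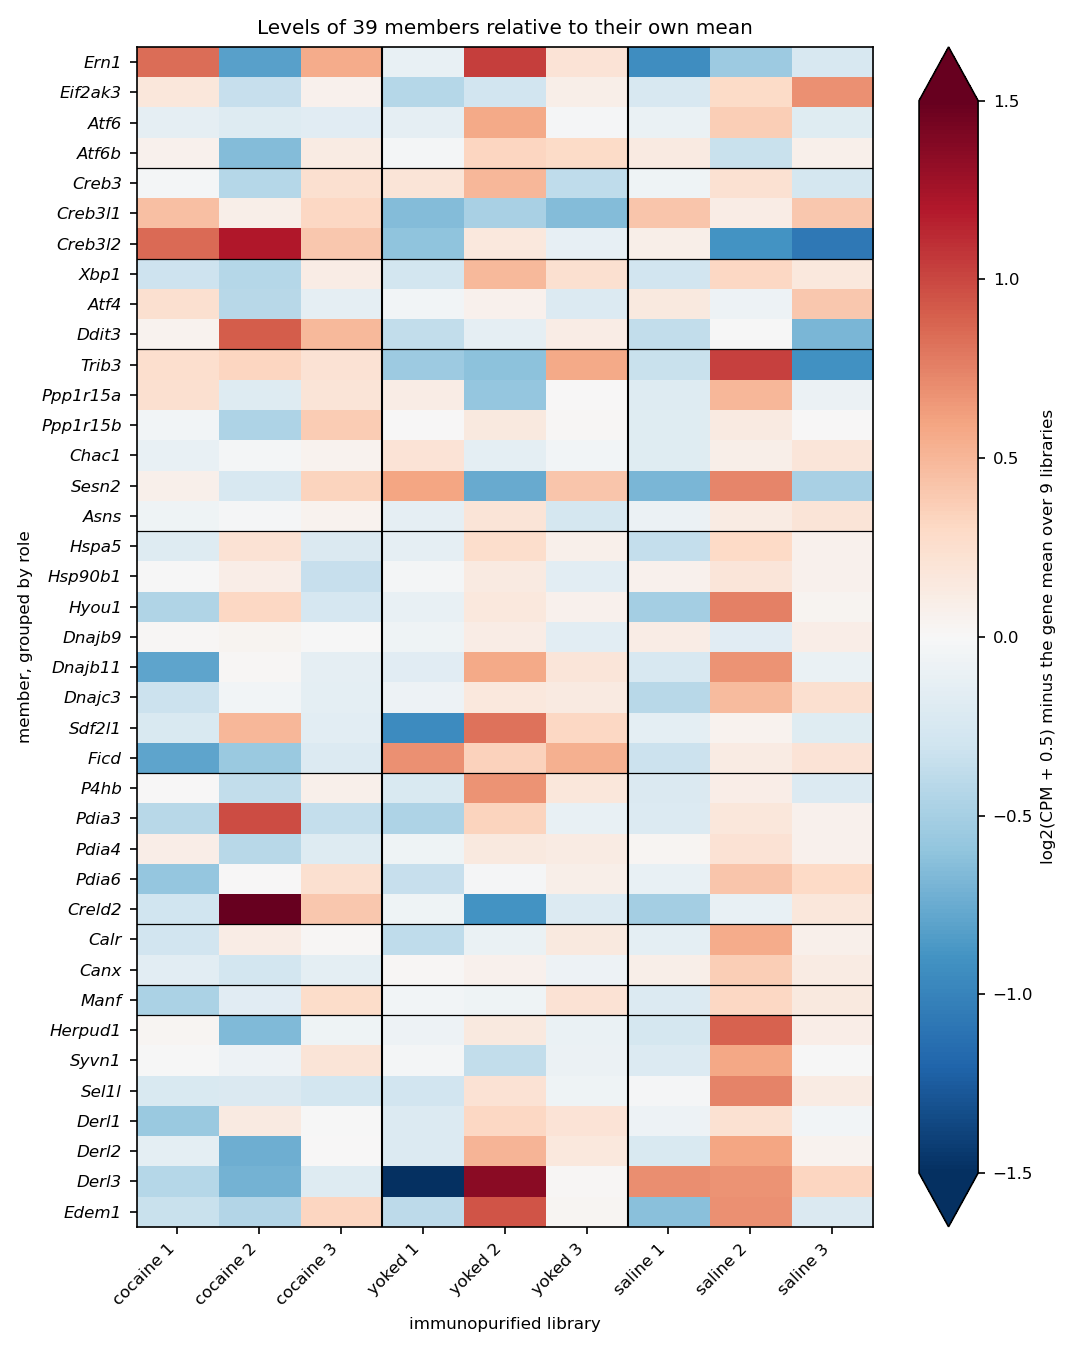
Heat map of the deviation of log2(CPM + 0.5) from the average of each gene across all 9 immunopurified libraries, for the 39 tested members, with libraries in columns by group and members in rows by role, lines separating the roles. The columns of yoked library 2 and saline library 2 are mostly red in the folding and degradation rows, and Ficd and Creb3l1 differ in blocks of 3 columns.

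Cocaine against saline self-administration asked which members differ after drug taking. At an adjusted p under 0.05, that is, with the false discovery rate over all genes held there, edgeR called 0 of 39 members and 0% of 14989 genes, and DESeq2 and limma voom also called 0 members and 0 genes. At an unadjusted p under 0.05 there were 4 members, Creb3l2 and Ddit3 toward higher and Sel1l and Canx toward lower levels. Of all genes tested, 5.28% were at that level, 2.76% higher and 2.52% lower. The median log2 fold change of the list was −0.13, with 28 members below 0 and 11 above, beside a median of 0.0049 over all genes, of which 49.4% were below 0 and 50.6% above. The 95% interval of a member extended, in the median, by 0.55 (log2) in either direction.

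Creb3l2, at chr6:37327255-37442276 in RefSeq (GRCm38.p6), measured 4.93, 6.43 and 3.49 CPM in cocaine libraries against 2.69, 1.11 and 0.926 CPM in saline libraries. Every cocaine library lay above every saline library. The locus overlaps the long noncoding RNA Gm33275, whose reads may not be told apart from it. The log2 fold change was 1.69 ± 0.57 (SE; 95% interval 0.48 to 2.90, unadjusted p = 0.00963, adjusted p = 0.850 in edgeR with Benjamini-Hochberg adjustment). In the yoked group it measured 1.47, 2.87 and 2.26 CPM. All 9 immunopurified libraries lay below the 10.5 CPM of the input.

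Ddit3, at chr10:127290793-127296291, measured 6.97, 12.9 and 9.57 CPM in cocaine and 5.08, 6.65 and 3.97 CPM in saline libraries, again with no overlap. Its log2 fold change was 0.94 ± 0.35 (SE; interval 0.19 to 1.70, unadjusted p = 0.0177, adjusted p = 0.850 in edgeR). CHOP is the factor most often read as a sign of prolonged stress. Its upstream factor Atf4 measured 316, 200 and 243 CPM in cocaine and 294, 253 and 354 CPM in saline libraries, with overlapping groups and a log2 fold change of −0.24 ± 0.19 (SE). Trib3 and Chac1, which are induced along the same path, had 0.20 ± 1.15 and −0.054 ± 0.27. Trib3 had 9, 53 and 3 counts in saline libraries 1 to 3. Without the 3 libraries numbered 2 it was at 1.89 (unadjusted p = 0.137, adjusted p = 0.9997 in edgeR). In that fit Chac1 was at −0.061, Atf4 at −0.23 and Ddit3 at 0.86.

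Sel1l measured 104, 105 and 101 CPM in cocaine against 121, 205 and 133 CPM in saline libraries, and Canx measured 286, 264 and 287 CPM against 338, 412 and 346 CPM. The groups did not overlap in either gene. The log2 fold change was −0.55 ± 0.20 for Sel1l (SE; unadjusted p = 0.0143) and −0.37 ± 0.14 for Canx (unadjusted p = 0.02005), both with an adjusted p of 0.850 in edgeR. Saline library 2 was the highest in both, Sel1l was at −0.29 without it, and without the 3 libraries numbered 2 the values were −0.32 and −0.27. Derl3 was the further member without overlap, at 1.39, 1.05 and 1.73 CPM in cocaine against 3.63, 3.56 and 2.68 CPM in saline libraries. In all, 2 members lay wholly above and 3 wholly below saline, where 4.88% and 5.4% of all genes did, 10.3% together.

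The sensors and the central chaperone overlapped between cocaine and saline. Hspa5 measured 98.1, 131 and 96.7 CPM in cocaine and 87.3, 138 and 117 CPM in saline libraries, a log2 fold change of −0.051 with a 95% interval of −0.48 to 0.38. Xbp1 measured 106, 98.5 and 143 CPM against 108, 165 and 148 CPM, and Atf6 56.7, 54.2 and 55.2 CPM against 58.1, 80.2 and 54.7 CPM. Eif2ak3 measured 11.6, 7.98 and 10.8 CPM against 8.63, 12.7 and 16.9 CPM. Ern1 measured 7.30, 1.98 and 5.94 CPM in cocaine and 1.80, 2.48 and 3.21 CPM in saline libraries, so that cocaine library 2 fell within the saline range and the other 2 above it. Its log2 fold change was 1.01 ± 0.52 (SE; unadjusted p = 0.0718) and was 1.37 without the 3 libraries numbered 2 (unadjusted p = 0.00612, adjusted p = 0.9997 in edgeR).

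Without the 3 libraries numbered 2, 0 members were called, the median of the list was −0.054 and 26 members were below 0. The degradation genes, all 7 of which were below 0 with every library (median −0.44), had a median of −0.0060 and 4 of 7 below 0 in that fit. Herpud1 was at −0.53 with all libraries and at 0.035 in that fit, and Derl2 at −0.44 and −0.0060. The 8 genes of the Hsp70 and Hsp90 system had 6 below 0 with all libraries (median −0.20) and 8 below 0 without those numbered 2 (median −0.18). The 5 disulfide isomerases had 2 below 0 with all libraries (median 0.030) and 3 below 0 without those numbered 2 (median −0.10). The 6 targets of the PERK and ATF4 arm and phosphatase subunits had 3 below 0 (median 0.0079) and 2 below 0 (median 0.31). Sesn2, a stress-induced regulator of growth signalling, measured 5.26, 4.12 and 6.38 CPM in cocaine and 2.89, 8.53 and 3.40 CPM in saline libraries, and saline library 2 lay above all cocaine libraries. Its log2 fold change was 0.10 ± 0.49 (SE) with all libraries and 0.87 without those numbered 2 (unadjusted p = 0.0219, adjusted p = 0.9997 in edgeR). In that fit 4 members had an unadjusted p under 0.05, Ern1, Ddit3 and Sesn2 higher and Sel1l lower, where 2.37% of all genes were higher and 1.09% lower.

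**Figure D4:**
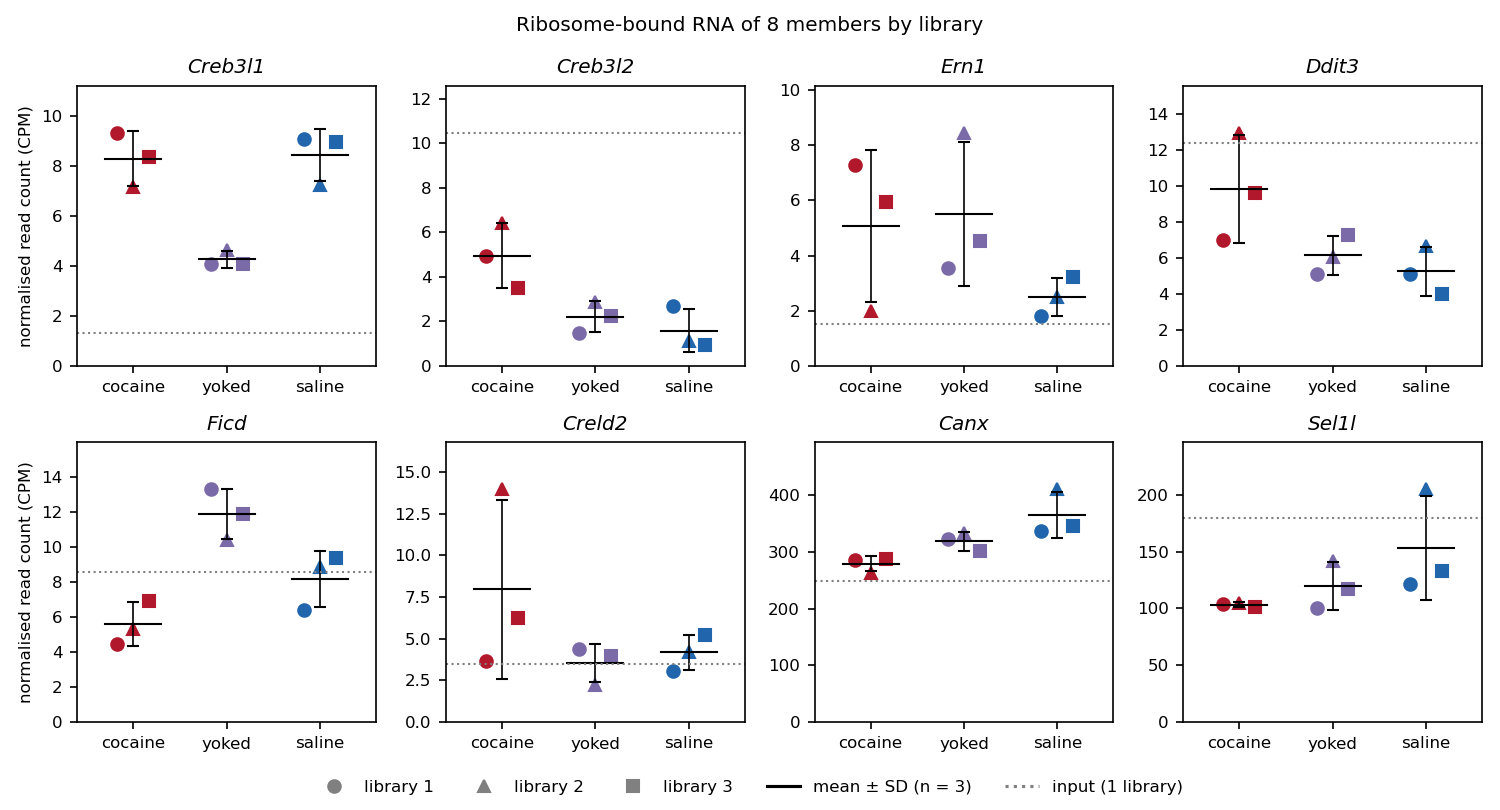
CPM of 8 members in each immunopurified library by group, with symbols for library number, black lines for the group mean ± SD (n = 3) and a dotted line for the input. The 3 yoked libraries of Creb3l1 lie between 4.06 and 4.64 CPM, below the other 6 immunopurified libraries, and those of Ficd between 10.4 and 13.3 CPM, above the other 6.

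Cocaine self-administration against yoked controls compared groups that share a lane number. Again 0 of 39 members were called by edgeR, with 0% of 14989 genes called, and DESeq2 and limma voom called 0 members and 0 genes. Unadjusted p was under 0.05 for 4 members, of which Creb3l1, Creb3l2 and Creld2 were higher and Ficd lower. Of all genes, 2.61% were at that level, 1.63% higher and 0.974% lower. The median of the list was −0.089 with 25 members below 0, beside 0.0011 over all genes, of which 49.8% were below 0 and 50.2% above.

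Ficd encodes the enzyme that attaches AMP to BiP and removes it again, which sets how much BiP is active. The gene lies at chr5:113735758-113740607 in RefSeq (GRCm38.p6). It measured 4.44, 5.32 and 6.92 CPM in cocaine libraries against 13.3, 10.4 and 11.9 CPM in yoked libraries, and 6.37, 8.81 and 9.36 CPM in saline libraries. Every cocaine library lay below every yoked library, and every yoked library above every saline library. The log2 fold change of cocaine against yoked was −1.06 ± 0.31 (SE; 95% interval −1.73 to −0.40, unadjusted p = 0.00387, adjusted p = 0.9997 in edgeR with Benjamini-Hochberg adjustment). It was −1.17 without the 3 libraries numbered 2. Leaving out any 1 of the 9 libraries gave values from −1.22 to −0.92. Its substrate Hspa5 measured 98.1, 131 and 96.7 CPM in cocaine and 102, 135 and 119 CPM in yoked libraries, with overlapping groups and a log2 fold change of −0.082 ± 0.20 (SE).

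Creb3l1 lies at chr2:91982328-92024170. It measured 9.34, 7.15 and 8.38 CPM in cocaine libraries against 4.06, 4.64 and 4.08 CPM in yoked libraries, and 9.10, 7.26 and 8.98 CPM in saline libraries. Yoked stood apart from both other groups, while cocaine and saline libraries covered the same range. The log2 fold change was 0.99 ± 0.30 for cocaine against yoked (SE; 95% interval 0.35 to 1.64, unadjusted p = 0.00529, adjusted p = 0.9997 in edgeR). It was 1.10 without the 3 libraries numbered 2, and from 0.91 to 1.07 when any 1 library was left out. The 2 comparisons with yoked share the yoked libraries, so that this is 1 observation of those 3 libraries and not a pair of independent ones.

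Creb3l2 measured 4.93, 6.43 and 3.49 CPM in cocaine against 1.47, 2.87 and 2.26 CPM in yoked libraries, without overlap, at a log2 fold change of 1.23 ± 0.56 (SE; unadjusted p = 0.0438, adjusted p = 0.9997 in edgeR). Both factors were thus higher after cocaine self-administration than in yoked mice before adjustment, from opposite sides of the input. Their patterns differed against saline, where Creb3l1 was at −0.016 and Creb3l2 at 1.69. Creb3l2 lay below the input, as spiny neuron and glial markers did, and which cells its reads came from was not tested. Creld2, an isomerase-like protein secreted under stress, measured 3.63, 14.0 and 6.24 CPM in cocaine and 4.38, 2.24 and 3.93 CPM in yoked libraries. Its groups overlapped and cocaine library 2 set the value of 1.22 ± 0.50 (SE; unadjusted p = 0.0292), which was 0.48 without that library and 0.22 without the 3 libraries numbered 2.

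Ddit3 was higher in cocaine library 2 and 3 than in any yoked library, at 6.97, 12.9 and 9.57 CPM against 5.08, 6.06 and 7.24 CPM, but cocaine library 1 overlapped (log2 fold change 0.73 ± 0.35, SE, unadjusted p = 0.0554). Xbp1 measured 106, 98.5 and 143 CPM in cocaine and 109, 185 and 157 CPM in yoked libraries, and Atf4 316, 200 and 243 CPM and 260, 278 and 232 CPM. Atf6 measured 56.7, 54.2 and 55.2 CPM against 56.5, 92.0 and 61.4 CPM, Ern1 7.30, 1.98 and 5.94 CPM against 3.53, 8.46 and 4.51 CPM, and Eif2ak3 11.6, 7.98 and 10.8 CPM against 7.47, 8.30 and 11.0 CPM. The groups overlapped in each of these sensors and factors. The log2 fold change of Ern1 was −0.088 with all libraries and 0.69 without the 3 libraries numbered 2. Over the list, 2 members lay wholly above and 2, Ficd and Canx, wholly below yoked, where 3.42% and 3.37% of all genes did, 6.78% together. Canx measured 286, 264 and 287 CPM in cocaine and 322, 334 and 301 CPM in yoked libraries.

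Yoked controls against saline self-administration differed in lane as well as in treatment. edgeR called 0 of 39 members and 0% of 14989 genes, DESeq2 and limma voom called 0 members and 0 genes, and 1 member, Creb3l1, had an unadjusted p under 0.05, toward lower levels. Of all genes, 2.18% were at that level, 1.38% higher and 0.801% lower. The log2 fold change of Creb3l1 was −1.01 ± 0.30 (SE; 95% interval −1.66 to −0.36, unadjusted p = 0.00477, adjusted p = 0.9993 in edgeR with Benjamini-Hochberg adjustment) and −1.14 without the 3 libraries numbered 2. Ficd was 0.52 ± 0.31 (SE; unadjusted p = 0.111), 0.68 without those libraries. In the fit without them 3 members had an unadjusted p under 0.05, where 2.06% of all genes were higher and 0.956% lower: Creb3l1, Atf4 at −0.39 (unadjusted p = 0.0411) and Sesn2 at 1.21 (unadjusted p = 0.00338), and the adjusted p in edgeR was 0.9998 for all 3. Sesn2 measured 7.71, 2.73 and 6.77 CPM in yoked and 2.89, 8.53 and 3.40 CPM in saline libraries, with library 2 the lowest of the yoked and the highest of the saline group, and it was at 0.22 ± 0.49 (SE) with all libraries. In a single test for any difference among the 3 groups, Creb3l1 (unadjusted p = 0.00835), Ficd (0.0130), Creb3l2 (0.0193), Ddit3 (0.0369) and Sel1l (0.0375) had a p under 0.05, where 2.8% of all genes did, and the adjusted p of each was 0.9995 in edgeR.

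Ern1 was the other member with all yoked libraries above saline, at 3.53, 8.46 and 4.51 CPM against 1.80, 2.48 and 3.21 CPM (log2 fold change 1.10 ± 0.52, SE, unadjusted p = 0.0526). Canx lay wholly lower, at 322, 334 and 301 CPM against 338, 412 and 346 CPM (−0.21 ± 0.14). In all, 2 members lay wholly above and 2 wholly below saline, where 4.3% and 2.74% of all genes did, 7.05% together. Hspa5 measured 102, 135 and 119 CPM in yoked and 87.3, 138 and 117 CPM in saline libraries, Xbp1 109, 185 and 157 CPM and 108, 165 and 148 CPM, and Atf4 260, 278 and 232 CPM and 294, 253 and 354 CPM. Atf6 measured 56.5, 92.0 and 61.4 CPM against 58.1, 80.2 and 54.7 CPM, Eif2ak3 7.47, 8.30 and 11.0 CPM against 8.63, 12.7 and 16.9 CPM, and Ddit3 5.08, 6.06 and 7.24 CPM against 5.08, 6.65 and 3.97 CPM. These 6 genes overlapped between the groups. The median of the list was −0.072 with 23 members below 0, beside −0.014 over all genes, of which 52.1% were below 0 and 47.9% above, and it was 0.074 with 15 below 0 without the 3 libraries numbered 2.

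**Figure D5:**
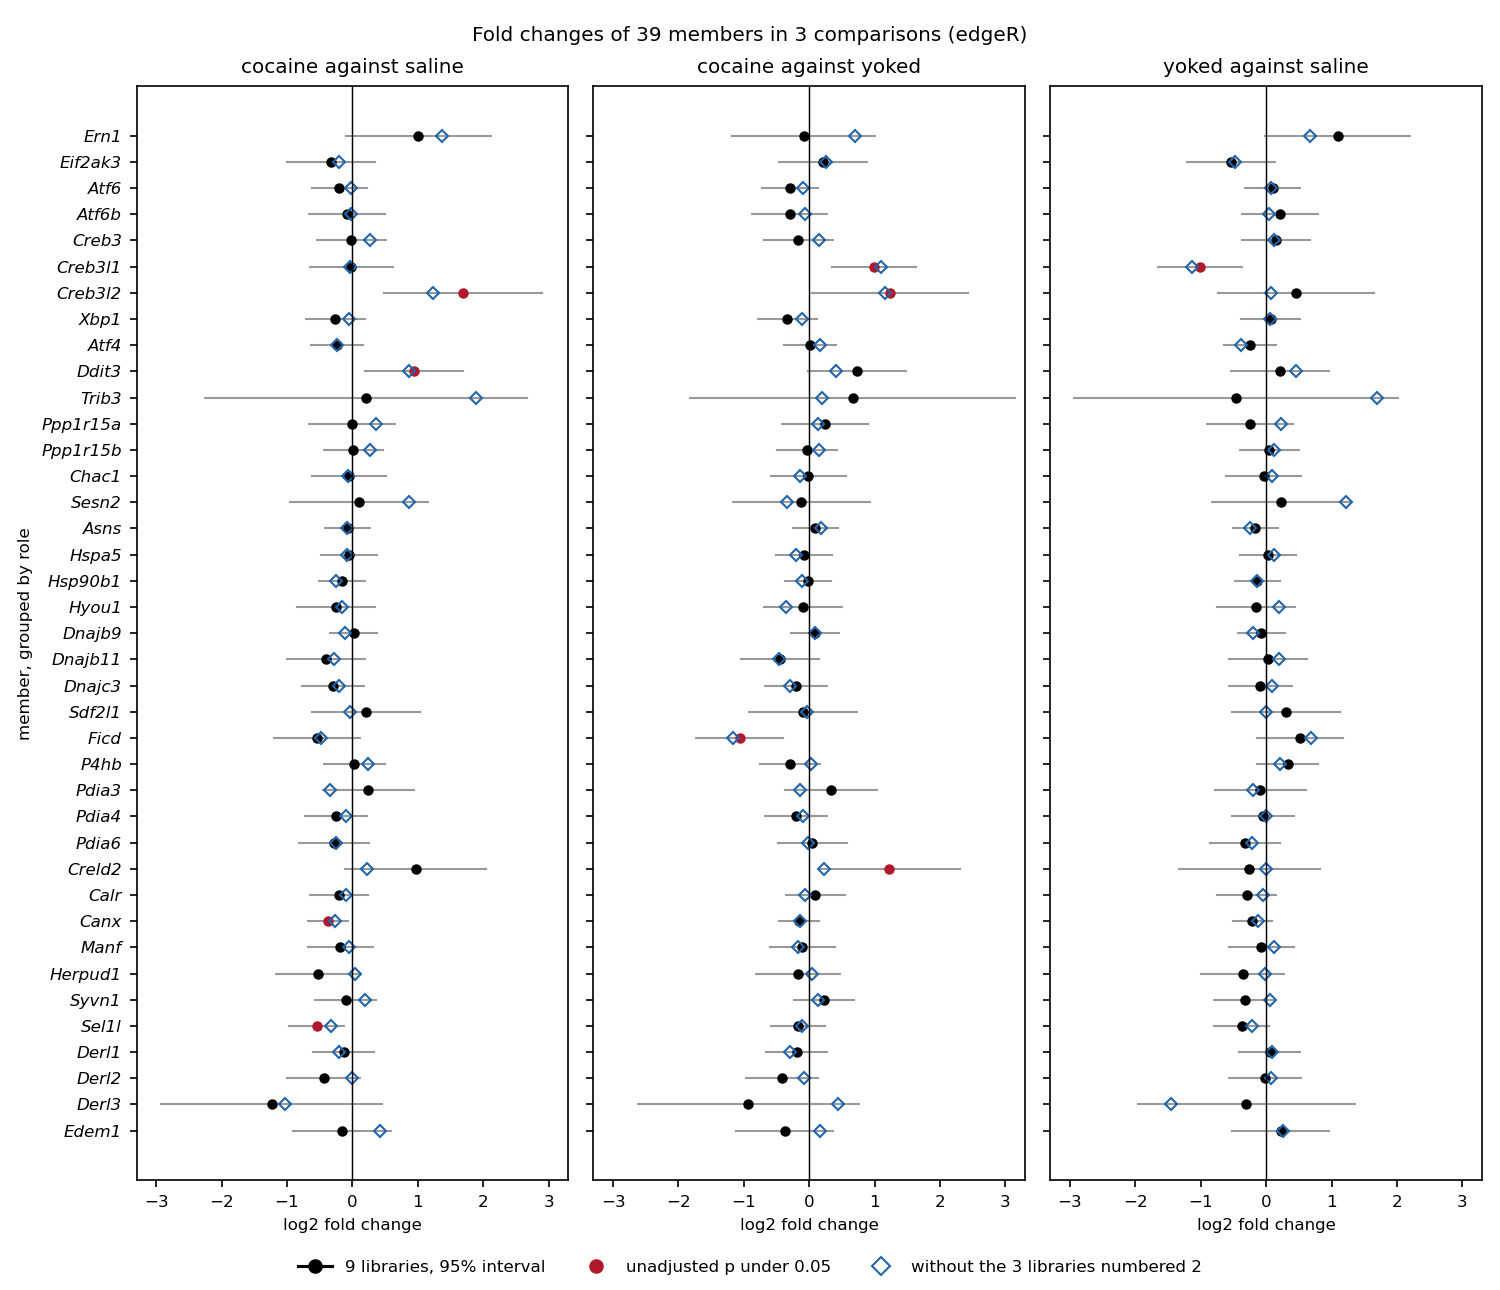
Log2 fold change of each of the 39 tested members in the 3 comparisons, with filled points and 95% intervals from all 9 libraries, red where the unadjusted p is under 0.05, and open diamonds from the fit without the 3 libraries numbered 2. Ficd at −1.06 and Creb3l1 at 0.99 in cocaine against yoked keep their place without those libraries, whereas Creld2 is at 0.22 without them and 1.22 with them.

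The wider machinery of the organelle and of the stress response was read from 7 further lists with 114 genes in the tables, of which 109 were tested. None was called in any comparison. Cocaine against saline had 9 of 109 genes with an unadjusted p under 0.05, all 9 lower, and 82 of 109 below 0 (median −0.15), where 5.28% of all genes had such a p, 2.52% lower, and 49.4% were below 0. The 17 translocon and signal peptidase genes, which bring new proteins into the organelle, held 4 of these 9 and had a median of −0.25. Mbtps2, the site-2 protease that frees ATF6, measured 63.8, 60.9 and 60.9 CPM in cocaine against 75.2, 117 and 78.1 CPM in saline libraries (unadjusted p = 0.0146), and Sec61a2, a translocon pore subunit, 70.7, 45.1 and 70.0 CPM against 67.7, 126.5 and 91.9 CPM (unadjusted p = 0.0156). Both had an adjusted p of 0.850 in edgeR, and their log2 fold changes of −0.53 and −0.61 were −0.31 and −0.20 without the 3 libraries numbered 2. The counts and medians of the wider lists come from the fit with all libraries only. For the 39 members the median in cocaine against saline went from −0.13 to −0.041 without saline library 2.

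Cocaine against yoked had 1 gene of the 109 higher and 3 lower at an unadjusted p under 0.05, where 1.63% and 0.974% of all genes were, with a median of −0.069. In this comparison 63 of 109 were below 0, where 49.8% of all genes were. Cdnf, a relative of Manf, measured 1.71, 5.54 and 3.77 CPM in cocaine against 1.62, 0.0659 and 0.983 CPM in yoked libraries, and Sec61a1 43.6, 33.0 and 41.8 CPM against 44.1, 78.6 and 52.6 CPM. Their log2 fold changes were 2.05 ± 0.86 and −0.53 ± 0.22 (SE), and 1.04 and −0.21 without the 3 libraries numbered 2. Yoked against saline had 1 gene lower, where 0.801% of all genes were, namely Dnajc1, at 3.93, 4.84 and 7.61 CPM against 7.26, 16.4 and 6.89 CPM, and a median of −0.074. Here 75 of 109 were below 0, where 52.1% of all genes were, so lower values than in saline were not particular to cocaine. Dnajc1 was at −0.91 ± 0.40 (SE) with all libraries and −0.29 without the 3 numbered 2. The amino acid and tRNA synthetase genes controlled by ATF4 had medians of −0.033, 0.018 and −0.038 in the 3 comparisons, with 0 of 22 at an unadjusted p under 0.05 in each. Against the input, 64 of 109 wider genes lay above it in all 3 saline libraries and 19 below, where 35.8% and 44.9% of all genes measured did so, with a median of 0.51 ± 0.21 on the log2 scale (SD between the medians of the 3 libraries), and the translocon and signal peptidase genes had 0.92 ± 0.35.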

How the data were processed

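Raw read counts per gene symbol were deposited by the authors, 1 table per library and without normalisation. Per the submitters' processing notes, STAR 2.0.0e and HTSeq, without a version, were used with build mm10. Annotation, strand setting and filters are not given in the sources used here. Unassigned reads, between 47.6% and 67.4% of all reads per library, stayed out of library sizes and tests. Intervals on counts are exact Poisson intervals at 95%, and like all floors they cover counting error only, since reads carry no molecular identifiers.

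Groups followed the titles of the samples. The 9 immunopurified libraries entered 1 fit of edgeR 4.0.16 in R 4.3.3 (quasi-likelihood, robust, trimmed mean of M-values). The filter for low counts (minimum 10, total 15) left 14989 genes and 39 of the 40 members. p values were adjusted over all 14989 genes, with a call at 0.05. DESeq2 1.42.0, limma 3.58.1 and other settings were run beside it. On simulated counts for 14989 genes, 2-fold changes were called in 49%, 43% and 55% of cases for cocaine against saline, cocaine against yoked and yoked against saline, and 4-fold changes in 95%, 95% and 96%. The changed genes, 100 of each size, were drawn from genes of at least 5 CPM. These shares therefore do not cover Trib3, Derl3, Creb3l2 and Ern1, which averaged less. The share called also depends on the number of changes planted. The labels do not say what a shared replicate number means, and the main fit has no term for it.

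Ratios to the input are log2 ratios of CPM for genes with at least 20 counts. Described with the values of every library compared are members with an unadjusted p under 0.05, Ficd, Creb3l1, a fixed set of sensors, factors and BiP, and the 5 highest and lowest ratios to the input. The members, the wider lists and this rule were chosen with earlier results of these data known. Coordinates and promoters come from RefSeq tables of GRCm38.p6, in which all 40 members matched. Of the members, 15 overlap another annotated gene, and reads in the shared stretches may not be told apart.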

Additional observations from a re-analysis of the deposited data

How the results depend on the processing

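No member was called in any comparison under any alternative run. Without a filter on low counts edgeR called 60 genes between cocaine and saline, 27 between cocaine and yoked, 18 between yoked and saline and 98 in the test for any difference, none a member; the cause was not tested. With a replicate block, 0 genes and 0 members were called, as without it. In cocaine against yoked the block gave −1.09 for Ficd and 0.99 for Creb3l1. In cocaine against saline it gave 1.71 for Creb3l2, 0.91 for Ddit3, −0.51 for Sel1l and −0.37 for Canx. Same-numbered libraries of different groups correlated in their deviations at 0.0485 to 0.29, and differently numbered ones at −0.19 to 0.087. All same-numbered pairs were thus above 0, and the ranges overlapped. The main fit has no term for the number because the labels do not say what it means. These correlations do not show that the libraries are unpaired. What a shared number stands for was not tested. Values near 0 changed sign. Creb3l1 in cocaine against saline (−0.016) was 0.0035 without a filter and 0.0041 with the compared groups alone, and −0.12 to 0.068 when 1 library was left out. Atf4 in cocaine against yoked (0.0097) was −0.022 with library size alone, −0.0093 with the replicate block, and −0.17 to 0.14 with 1 library left out. Ern1 in cocaine against yoked (−0.088) was 0.43 in limma voom, 0.69 without the 3 libraries numbered 2 and −0.45 to 0.32 with 1 left out. With 1 left out, Hspa5 ran from −0.23 to 0.094 (cocaine against saline), −0.27 to 0.016 (cocaine against yoked) and −0.13 to 0.18 (yoked against saline), Xbp1 from −0.088 to 0.24 and Atf6 from −0.092 to 0.27 (both yoked against saline). The median of the list ran from −0.22 to −0.041, −0.13 to 0.012 and −0.16 to 0.071 in the 3 comparisons. Leaving out saline library 2 and yoked library 2 together, an alternative chosen after the data were seen, gave medians of −0.035, 0.0093 and 0.072, 0 genes called, 0.099 for Hspa5 in cocaine against saline and 0.31 for Ern1 in cocaine against yoked. Against the input, members below it in all libraries numbered 4 to 10 when 1 saline library was left out (10 without library 2), and the ratio of Trib3 ran from −2.21 to 0.070. Depth limits Atf3, Trib3, Derl3 and Creb3l2, which had few counts.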
